A study of Mus musculus with 4 samples.

Results

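Tcf21, Pdgfra, Pi16, Ly6a, Dpt, Smoc2 and Dpep1 are genes that fibroblasts of the uninjured heart express, and their transcripts were followed here over sections of infarcted mouse hearts. They were chosen by name as genes of resting cardiac fibroblasts (CFs), by a rule that uses no measured value but with earlier results of these data known, and each of the 7 symbols matched 1 of the 21885 genes in the files. RNA was read with 10x Visium, in which each spot of a grid takes up the polyadenylated RNA of a small region that can hold several cells. The control group was 1 uninjured heart labelled female, the 3 dpi group 1 heart labelled female at 3 days post-infarction (dpi), and the 5 dpi group 2 hearts, replicate 1 labelled female and replicate 2 labelled male. All 4 mice were of genotype Collagen1a1-GFP+, a reporter line in which GFP marks cells that use the collagen gene Col1a1, and were 8 to 12 weeks old per the labels. Infarction was made in this study by permanent ligation of the left anterior descending coronary artery, 1 section was read per heart, and no operation is named for the control. The control and 3 dpi groups therefore have no replicate.

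CFs sit between the muscle cells and around the vessels of the heart, where they hold and renew the extracellular matrix. After a myocardial infarction (MI) they divide, move into the damaged muscle and turn into activated cells that make large amounts of collagen, and genes of the resting state are commonly used to tell cells that have not made this change. Pdgfra, Tcf21 and Dpt are shared by most CFs, Pi16 and Ly6a (Sca-1) are used as marks of fibroblasts of the vessel sheath, and Smoc2 and Dpep1 are further genes read in resting CFs.

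The sections kept 1146 spots in the control, 1741 at 3 dpi, and 1535 and 1423 in replicates 1 and 2 at 5 dpi. They held 3742105, 8374573, 9540940 and 8314946 UMIs, or counted molecules, outside the 13 mitochondrially encoded genes, and a level is the number of UMIs of a gene per 1000000 of these (CPM). Mitochondrial UMIs took 40.1% of all UMIs in the control and 13.3 to 21.4% after MI. The 12 cardiomyocyte marker genes, such as Myh6 and Tnnt2, made up 10.1% of non-mitochondrial UMIs in the control and 1.98 to 4.53% in the infarcted sections. The 4 Y-linked genes gave 704 UMIs in the section labelled female at 5 dpi and 1 in the section labelled male, which goes against both labels, so the 5 dpi sections are named by replicate number and results are also given without each. In the matrix of replicate 2 at 5 dpi, 623 spots were not marked as tissue and were left out.

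The promoters of the pair of genes whose levels moved in opposite directions between the zones described below, and that of Dpt, are shown for reference. Each is the 250 bases upstream of the transcript start in the RefSeq annotation of build GRCm38.p6, 5′ to 3′ on the gene's strand, in lower case. Capitals mark CAGCTG, which is an E-box, the kind of short element that proteins of the class of Tcf21 (basic helix-loop-helix factors) bind, and which reads the same on both strands.
Pi16 (chr17:29318632-29318881, + strand): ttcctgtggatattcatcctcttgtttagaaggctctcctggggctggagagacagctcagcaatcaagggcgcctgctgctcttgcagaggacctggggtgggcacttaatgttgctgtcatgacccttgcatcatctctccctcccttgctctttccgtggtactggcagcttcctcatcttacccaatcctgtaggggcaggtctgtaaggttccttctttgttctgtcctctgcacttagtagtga
Pdgfra (chr5:75152001-75152250, + strand): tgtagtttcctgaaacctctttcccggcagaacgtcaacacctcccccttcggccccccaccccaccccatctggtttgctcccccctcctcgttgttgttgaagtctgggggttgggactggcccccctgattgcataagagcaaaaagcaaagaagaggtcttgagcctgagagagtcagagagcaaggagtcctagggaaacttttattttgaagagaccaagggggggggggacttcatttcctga
Dpt (chr1:164796413-164796662, + strand): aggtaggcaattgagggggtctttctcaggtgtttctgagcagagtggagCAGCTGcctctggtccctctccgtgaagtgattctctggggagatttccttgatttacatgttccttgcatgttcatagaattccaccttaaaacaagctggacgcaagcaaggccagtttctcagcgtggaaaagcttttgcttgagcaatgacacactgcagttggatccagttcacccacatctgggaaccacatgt
The table of promoters held 5 of the 7 genes (Tcf21, Pdgfra, Pi16, Dpt and Dpep1). Dpt alone of these 5 carried the CAGCTG run, at base 51 of the window, and 4271 of the 32851 promoters in the table (13%) carried it. The match describes the letters of this window and says nothing of what binds there.

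The first comparison asked how the 7 genes stood in a whole section after MI against the uninjured heart. Their summed level was 754 CPM in the control section, 929 CPM at 3 dpi and, in replicates 1 and 2 at 5 dpi, 806 and 904 CPM, while single genes went different ways. Pdgfra and Dpt lay above the control in all 3 infarcted sections, and Smoc2 lay below it, though at 5 dpi not when mitochondrial UMIs were counted in the total. No gene of the 7 was at least 2-fold from the control on the same side in all 3 infarcted sections, whereas by the same count 24.6% of the 9304 genes that reached 10 CPM in any section were this far above the control and 5.19% this far below it. With 1 control heart these are values and folds with no test, and the 95% Poisson intervals cover counting error only. In spots that hold several cells, fewer fibroblasts and less RNA per fibroblast cannot be told apart.

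Tcf21, a transcription factor that CFs need in order to form, was at 9.89 CPM in the control section (37 UMIs, interval 6.96 to 13.6), 14 CPM at 3 dpi and, in replicates 1 and 2 at 5 dpi, 11.7 and 17.8 CPM. Only the interval of replicate 2 at 5 dpi, 15 to 20.9, lay clear of that of the control. Pdgfra, the receptor for platelet-derived growth factors on fibroblasts, was at 16.8 CPM in the control section (interval 12.9 to 21.5), 37.6 CPM at 3 dpi and, in replicates 1 and 2 at 5 dpi, 37.8 and 25.4 CPM. The 3 infarcted sections were 2.23, 2.25 and 1.51 times the control, and their intervals did not reach into that of the control.

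Pi16 (peptidase inhibitor 16), a protein of the CAP family, was at 123 CPM in the control section (interval 112 to 134), 81.4 CPM at 3 dpi and, in replicates 1 and 2 at 5 dpi, 98 and 136 CPM. It was below the control in the sections at 3 dpi and in replicate 1 at 5 dpi, and in replicate 2 its interval, 128 to 144, overlapped that of the control. Ly6a, a small protein anchored in the cell surface, was at 385 CPM in the control section (interval 366 to 406), 558 CPM at 3 dpi and, in replicates 1 and 2 at 5 dpi, 361 and 450 CPM. The section at 3 dpi was the highest of the 4, and the 5 dpi replicates lay on either side of the control. Dpep1, a membrane-bound dipeptidase, was at 38.7 CPM in the control section, 36.3 CPM at 3 dpi and, in replicates 1 and 2 at 5 dpi, 37.4 and 26.9 CPM, so that replicate 2 at 5 dpi alone stood apart, with an interval of 23.5 to 30.7.

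Dpt (dermatopontin), a small matrix protein that binds collagen and proteoglycans, was at 77.8 CPM in the control section (interval 69.1 to 87.2), 130 CPM at 3 dpi and, in replicates 1 and 2 at 5 dpi, 185 and 166 CPM. These are 1.67, 2.38 and 2.14 times the control, with all 3 intervals above it. Smoc2, a calcium-binding matrix protein of the SPARC family, was at 103 CPM in the control section (interval 92.6 to 113), 71.0 CPM at 3 dpi and, in replicates 1 and 2 at 5 dpi, 75.0 and 81.9 CPM, and all 3 intervals lay below it. Per all UMIs, mitochondrial ones included, the log2 ratio of the 5 dpi mean to the control turned from -0.39 to 0.14 for Smoc2, from -0.27 to 0.26 for Dpep1 and from -0.07 to 0.45 for Pi16, and for Ly6a it turned from 0.07 to -0.33 with TMM factors and to -0.04 with cardiomyocyte genes left out of the total. Pdgfra (0.91) and Dpt (1.17) stayed above the control under both (1.44 and 1.70 per all UMIs, 0.48 and 0.76 with TMM factors). Between the times, Ly6a averaged 406 ± 63.1 CPM (SD, n = 2) at 5 dpi against 558 in the heart at 3 dpi, and Dpt 176 ± 13.4 CPM (SD, n = 2) against 130, and this difference was not tested.

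**Figure D1:**
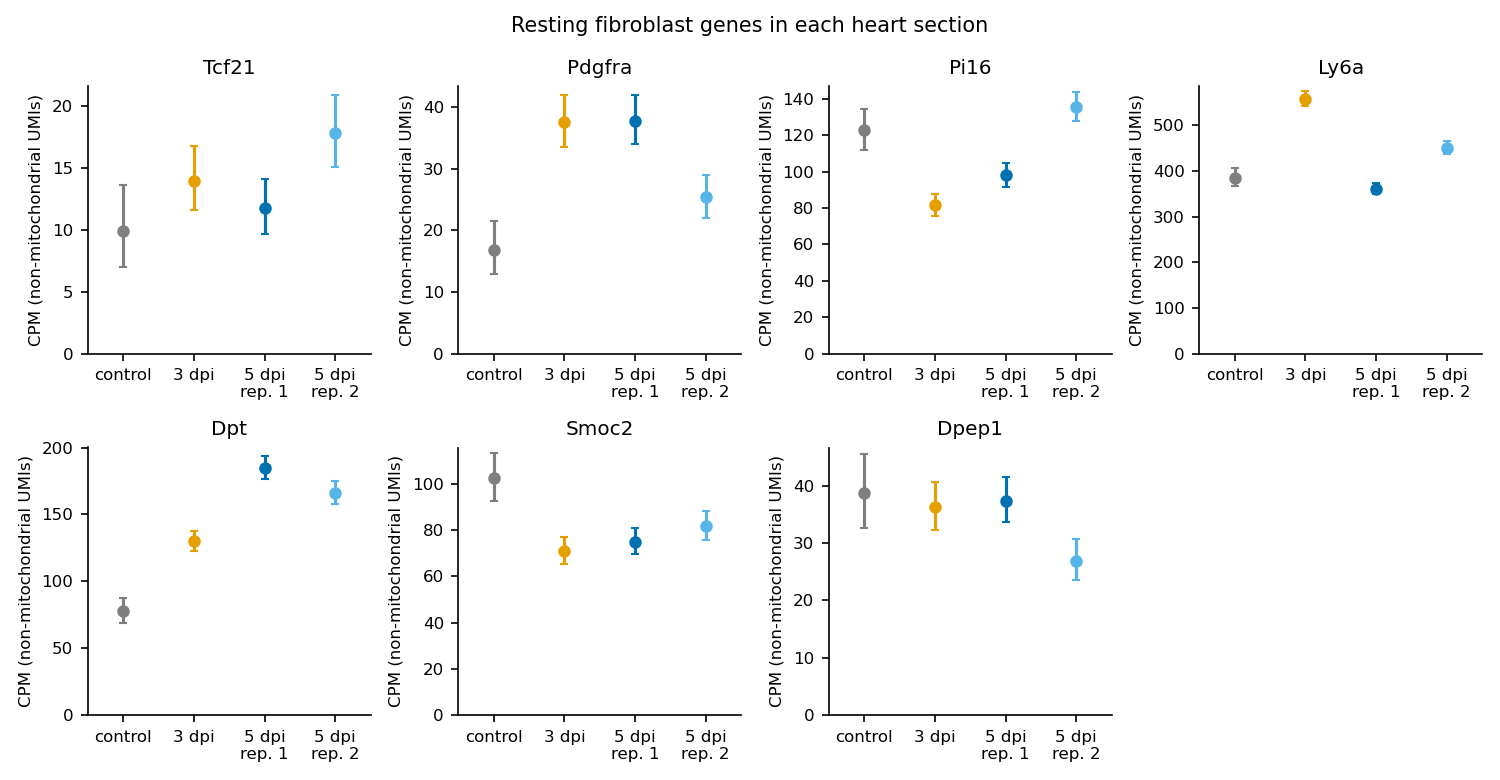
Levels of the 7 resting fibroblast genes in the 4 heart sections, in CPM of non-mitochondrial UMIs on axes that start at 0, 1 panel per gene. Points are single sections and bars 95% Poisson intervals (counting error only). Pdgfra and Dpt lie above the control in all 3 infarcted sections (25.4 to 37.8 against 16.8 CPM, and 130 to 185 against 77.8 CPM) and Smoc2 lies below it (71.0 to 81.9 against 103 CPM), a direction that turns at 5 dpi when mitochondrial UMIs are counted in the total.

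Set against the reporter, every gene of the 7 was lower after MI. The transcript of the reporter, EGFP, was at 688 CPM in the control section, 1923 CPM at 3 dpi and, in replicates 1 and 2 at 5 dpi, 6389 and 6509 CPM, and Col1a1 itself at 91.4, 2299, 5330 and 3272. Per 1000 EGFP UMIs, Pi16 gave 178 UMIs in the uninjured heart, 42.4 at 3 dpi, and 15.3 and 20.8 in the replicates of 5 dpi. Ly6a gave 560, 290, 56.5 and 69.2 in the same order. Pdgfra gave 24.5, 19.6, 5.92 and 3.90, the smallest drop at 3 dpi among the 7. The control was 1.25 to 4.21 times the section at 3 dpi over the 7 genes and 3.90 to 13.6 times the sections at 5 dpi. This ratio falls both when a gene falls and when collagen transcription rises, and the 2 were not separated.

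The division of each infarcted section into zones asked where in the wall the genes changed. The infarct zone (IZ) was made of connected patches of at least 10 spots that were low in cardiomyocyte UMIs, under 0.5 times the 90th percentile of their own section. Spots up to 2 steps from an IZ spot made border zone 2 (BZ2), those at 3 to 4 steps border zone 1 (BZ1), and spots farther out the remote zone (RZ). Low spots in patches under 10, which were 23 at 3 dpi and 41 and 10 in replicates 1 and 2 at 5 dpi, were put in no zone. The IZ held 882, 1061 and 684 spots at 3 dpi and in replicates 1 and 2 at 5 dpi, and the RZ 380, 200 and 533. UMIs were summed per zone and section, since hearts and not spots are the replicates, and compared with edgeR's quasi-likelihood test with the section as a block, with p-values adjusted over all 9444 genes tested.

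In CPM, Pi16 fell and Pdgfra rose in the IZ against the RZ in all 3 sections. These were the only calls among the 7 genes that also stood with either of the other scalings. Levels and folds are relative to the UMIs of a zone, and IZ spots held more UMIs each than RZ spots. Counted per spot, Pi16 was higher in the IZ in replicate 2 at 5 dpi (546 UMIs in 684 spots, against 397 in 533) and lower in the other sections. Ly6a gave more UMIs per spot in the IZ in all 3 sections. By the edgeR test 1 gene rose (Pdgfra) and 4 fell (Pi16, Dpep1, Smoc2 and Ly6a), against a background in which 53.8% of all genes were called, 26.8% higher and 27.0% lower, so that a call as such is no rarity here. The median log2 fold change of the 7 genes was -0.49, beside 0.05 over all genes tested. TMM scaling, the default of the test, places the median gene 0.42 lower on the log2 scale than plain totals of UMIs do. With total UMIs in its place, Pdgfra, Dpt and Tcf21 were called higher and Pi16 lower, and the calls for Ly6a, Smoc2 and Dpep1 were lost. Over all genes, 49.8% of calls were higher with TMM and 73.8% with total UMIs.

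Pi16 was at 181 CPM in the RZ and 35.9 in the IZ at 3 dpi (241 and 179 UMIs). In replicate 1 at 5 dpi it was at 244 and 65.2 CPM, and in replicate 2 at 160 and 113. The RZ lay above the IZ in each section, with the largest ratio at 3 dpi and the smallest in replicate 2 at 5 dpi, and in each the RZ was also above the 123 CPM of the control. The log2 fold change of IZ over RZ was -1.94 ± 0.23 (SE, adjusted p = 4.2e-07), and it lay between -2.49 and -1.49 over the alternatives, past the threshold in all 11. Without replicate 2 at 5 dpi it was -2.49, and without the heart at 3 dpi -1.53.

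Pdgfra was at 19.6 CPM in the RZ and 44.3 in the IZ at 3 dpi, 19.1 and 42.9 in replicate 1 at 5 dpi, and 16.9 and 31.6 in replicate 2. The 3 RZ values lay close to the 16.8 CPM of the control and all 3 IZ values above them. The log2 fold change was 0.64 ± 0.20 (SE, adjusted p = 0.0104), and 1.07 with total UMIs. Without replicate 1 at 5 dpi it was 0.57 (adjusted p = 0.065), and with the limit for low spots set at percentile 1 of the control section the call was also lost at about the same size (0.68, adjusted p = 0.16).

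Dpep1 was at 52.7 CPM in the RZ and 24.2 in the IZ at 3 dpi, 66.9 and 33.4 in replicate 1 at 5 dpi, and 23.0 and 31.2 in replicate 2. It was lower in the IZ of the first pair of sections and higher, in CPM, in that of replicate 2. The fitted log2 fold change was -0.95 ± 0.27 (SE, adjusted p = 0.0059), it was -1.42 without replicate 2 at 5 dpi, and the call was lost without replicate 1 (-0.73, adjusted p = 0.11) and with total UMIs (-0.53, adjusted p = 0.11). Smoc2 was at 108 and 53.9 CPM at 3 dpi, 83.6 and 72.9 in replicate 1, and 74.1 and 88.5 in replicate 2, lower in the IZ in 2 of 3 sections. Its log2 fold change of -0.71 ± 0.19 (SE, adjusted p = 0.0040) rests on the heart at 3 dpi, without which it was -0.33 (adjusted p = 0.092), and on the scaling, since with total UMIs it was -0.29 (adjusted p = 0.20). The call for Smoc2 was also lost with the percentile 1 limit for low spots, and it stood in 7 of 11 alternatives.

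In CPM, Ly6a and Dpt changed sides between the times. Ly6a was at 418 CPM in the RZ and 597 in the IZ at 3 dpi, 462 and 335 in replicate 1 at 5 dpi, and 504 and 418 in replicate 2. The IZ was the higher zone at 3 dpi and the lower zone in both hearts at 5 dpi. The log2 ratio at 3 dpi, 0.52, is little more than the 0.42 that TMM scaling takes off in the fit of all 3 sections. A TMM-scaled ratio of the 3 dpi section alone was not computed. The pooled log2 fold change was -0.49 ± 0.16 (SE, adjusted p = 0.0135) and -0.74 without the heart at 3 dpi, and the call was lost without either heart at 5 dpi (-0.33 without replicate 1 and -0.35 without replicate 2, adjusted p = 0.21 and 0.19) and with total UMIs (-0.07, adjusted p = 0.73). It was also lost with total UMIs without cardiomyocyte genes, with no section block and with the percentile 1 limit for low spots. Ly6a was thus called in 5 of 11 alternatives. Dpt was at 147 and 122 CPM in RZ and IZ at 3 dpi, 117 and 198 in replicate 1 at 5 dpi, and 66.1 and 230 in replicate 2. It was thus lower in the IZ at 3 dpi and higher in both hearts at 5 dpi. The pooled fold change of 0.37 (adjusted p = 0.18) did not pass the threshold, while without the heart at 3 dpi it was 0.94 (adjusted p = 2.3e-05) and without replicate 2 at 5 dpi -0.15 (adjusted p = 0.62).

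Tcf21 was at 12.0 CPM in the RZ and 15.4 in the IZ at 3 dpi, 8.36 and 12.4 in replicate 1 at 5 dpi, and 10.9 and 22.5 in replicate 2. The IZ was above the RZ in 3 of 3 sections, but the RZ sums held only 16, 7 and 27 UMIs. The log2 fold change was 0.29 ± 0.24 (SE, adjusted p = 0.33) with TMM and 0.72 (adjusted p = 0.013) with total UMIs, and without the heart at 3 dpi the gene fell under the filter on low counts.

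**Figure D2:**
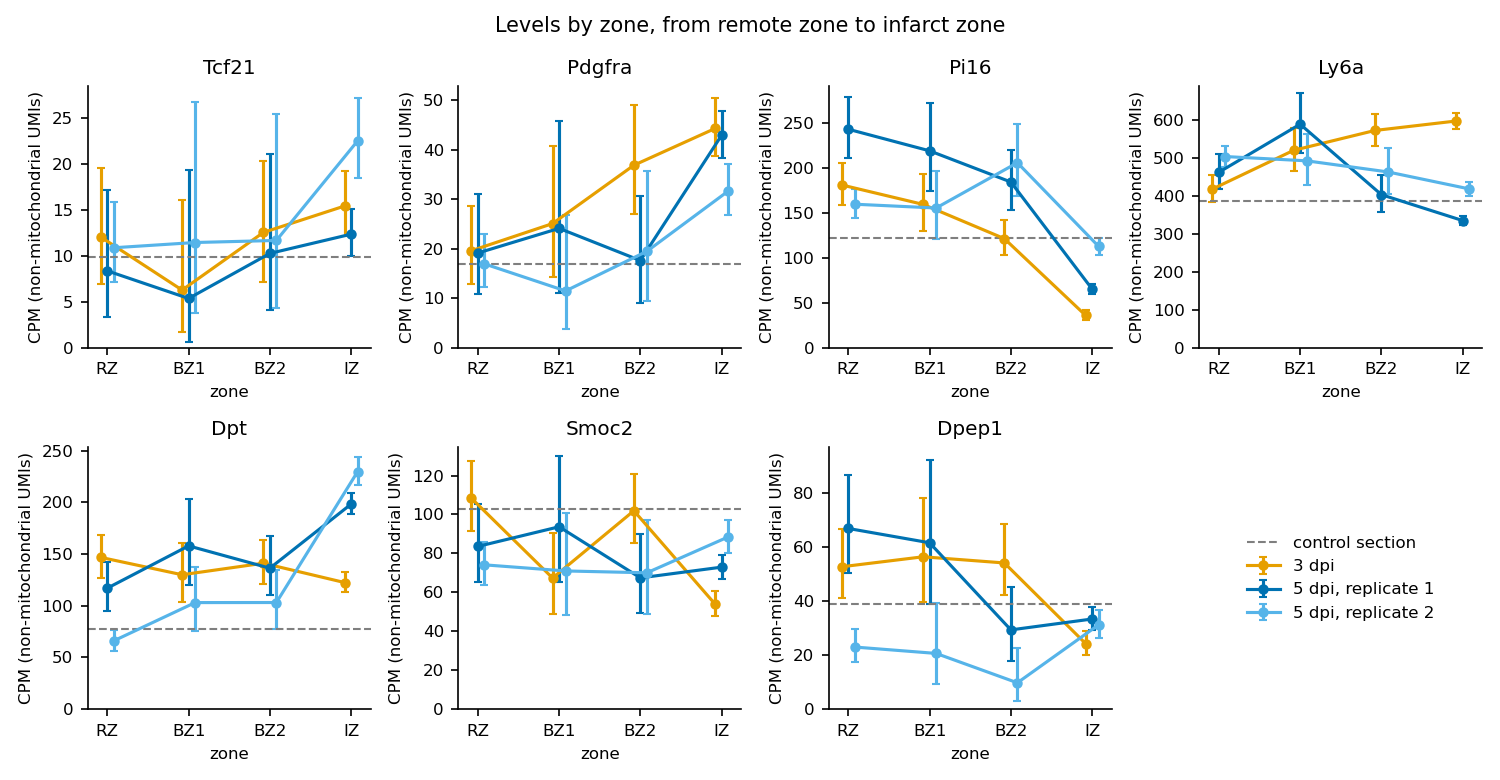
Levels of the 7 genes by zone in the 3 infarcted sections, in CPM of non-mitochondrial UMIs, from the remote zone (RZ) over border zones 1 and 2 to the infarct zone (IZ). Points are zone sums of 1 section with 95% Poisson intervals, and the dashed line is the control section. Pi16 drops from 160 to 244 CPM in the RZ to 35.9 to 113 CPM in the IZ, and Pdgfra climbs from 16.9 to 19.6 CPM to 31.6 to 44.3 CPM. In CPM, Ly6a and Dpt run opposite ways between RZ and IZ at 3 and 5 dpi. TMM-scaled values of single sections were not computed.

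**Figure D3:**
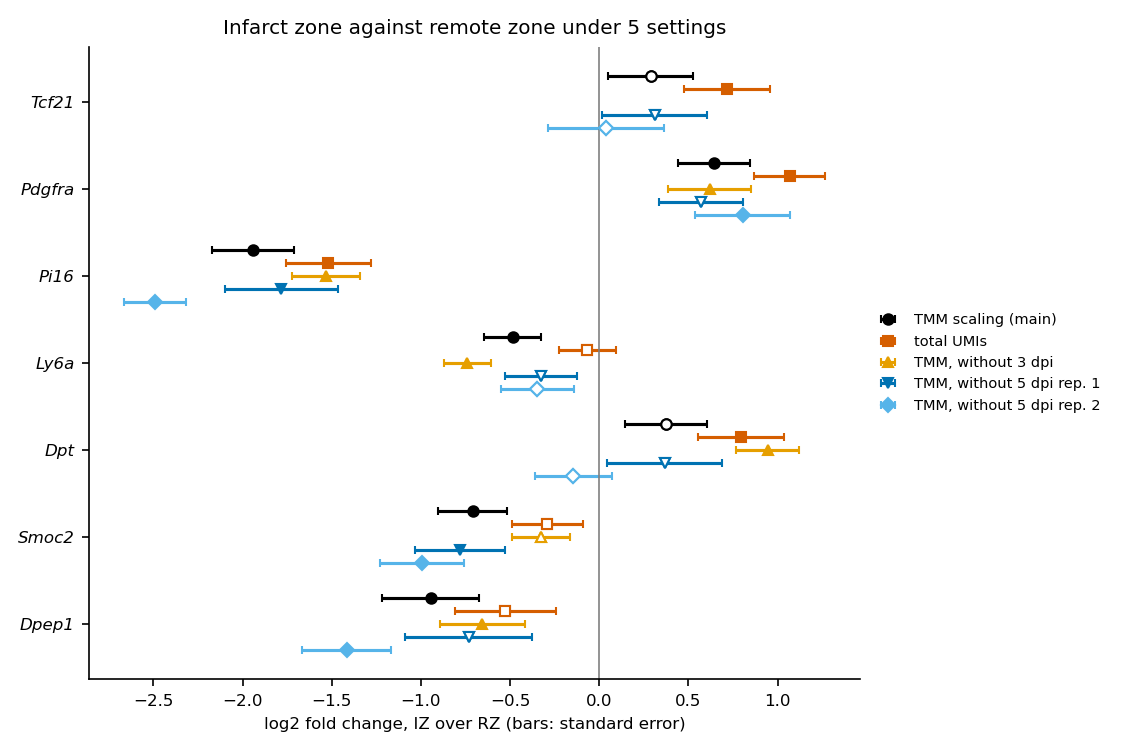
Log2 fold changes of IZ over RZ for the 7 genes with their standard errors from edgeR's quasi-likelihood test, with TMM scaling, with total UMIs in its place, and with each heart left out in turn. Filled symbols have an adjusted p under 0.05 and open symbols do not. Pi16 stays left of 0 and Pdgfra right of 0 in every setting drawn, Dpt falls to -0.15 without replicate 2 at 5 dpi, and Tcf21 could not be fitted without the heart at 3 dpi.

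Per 1000 EGFP UMIs all 7 genes were lower in the IZ than in the RZ in all 3 sections. For Pi16 the RZ was 14.1, 14.6 and 5.28 times the IZ at 3 dpi and in replicates 1 and 2 at 5 dpi. For Pdgfra it was 1.24, 1.75 and 1.99 times. The smallest ratio was that of Dpt in replicate 2 at 5 dpi, 1.07. EGFP itself rose from 874 to 2443 CPM, from 1892 to 7420 and from 2471 to 9201 between RZ and IZ, so the denominator moves with the zones.

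The border zone was compared to ask whether the genes already differed beside the infarct. None of the 7 genes was called between BZ2 and RZ, where 9.01% of all genes were (4.21% higher and 4.80% lower in BZ2). The lowest unadjusted p among the 7 was 0.12, and DESeq2 also called none of them. Dpep1 alone was called in an alternative, without the heart at 3 dpi (-1.15, adjusted p = 0.048), on 20 and 5 UMIs in the BZ2 of the 5 dpi hearts. Pi16 was at 122, 185 and 206 CPM in the BZ2 at 3 dpi and in replicates 1 and 2 at 5 dpi, below the RZ in 2 of 3 sections and above it in replicate 2. Between IZ and BZ2, where 34.4% of all genes were called (14.5% higher and 19.9% lower in the IZ), Pi16 was called lower in the IZ (log2 fold change -1.57 ± 0.24, SE, adjusted p = 2.3e-05, lower in 3 of 3 sections). The other 6 genes were not called there with TMM, and Pdgfra (0.63) was called with total UMIs, under which 66.5% of calls were higher against 42.1% with TMM. In BZ2 against RZ this share was 71.9% against 46.8%.

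Inside the IZ, the rim (1 to 2 steps from its edge) was set against the core (more than 4 steps inside), to ask whether the change deepens toward the centre. Pi16 was at 53.7 CPM in the rim and 23.5 in the core at 3 dpi, 190 and 39.8 in replicate 1 at 5 dpi, and 129 and 108 in replicate 2. The core was the lower in each heart, by the most in replicate 1 at 5 dpi. The log2 fold change was -1.46 ± 0.28 (SE, adjusted p = 0.0029), without the section as a block it was not called (-1.22, adjusted p = 0.24), and it was -0.81 without replicate 1 and -2.0 without replicate 2 at 5 dpi, past the threshold in both. Dpt was also called lower in the core (-0.43 ± 0.13, SE, adjusted p = 0.037), on 101 against 141 CPM at 3 dpi, 181 against 229 in replicate 1 and 226 against 224 in replicate 2. That call for Dpt was lost under 9 of 11 alternatives, among them DESeq2 and total UMIs. The share of all genes called was 18.1% (6.50% higher and 11.6% lower in the core), and 35.9% of these calls were higher in the core with TMM and 59.1% with total UMIs. The other 5 genes were not called. Of the 13 genes of activated fibroblasts, 1 was higher in the core (Acta2, 0.72) and 4 were lower (Ptn, -1.22, Postn, -0.96, Aspn, -0.91, and Col8a1, -0.54), all named after their values were seen. EGFP was at 2205 CPM in the rim and 2777 in the core at 3 dpi, 5946 and 7689 in replicate 1 at 5 dpi, and 6299 and 9737 in replicate 2, higher in the core in each heart.

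**Figure D4:**
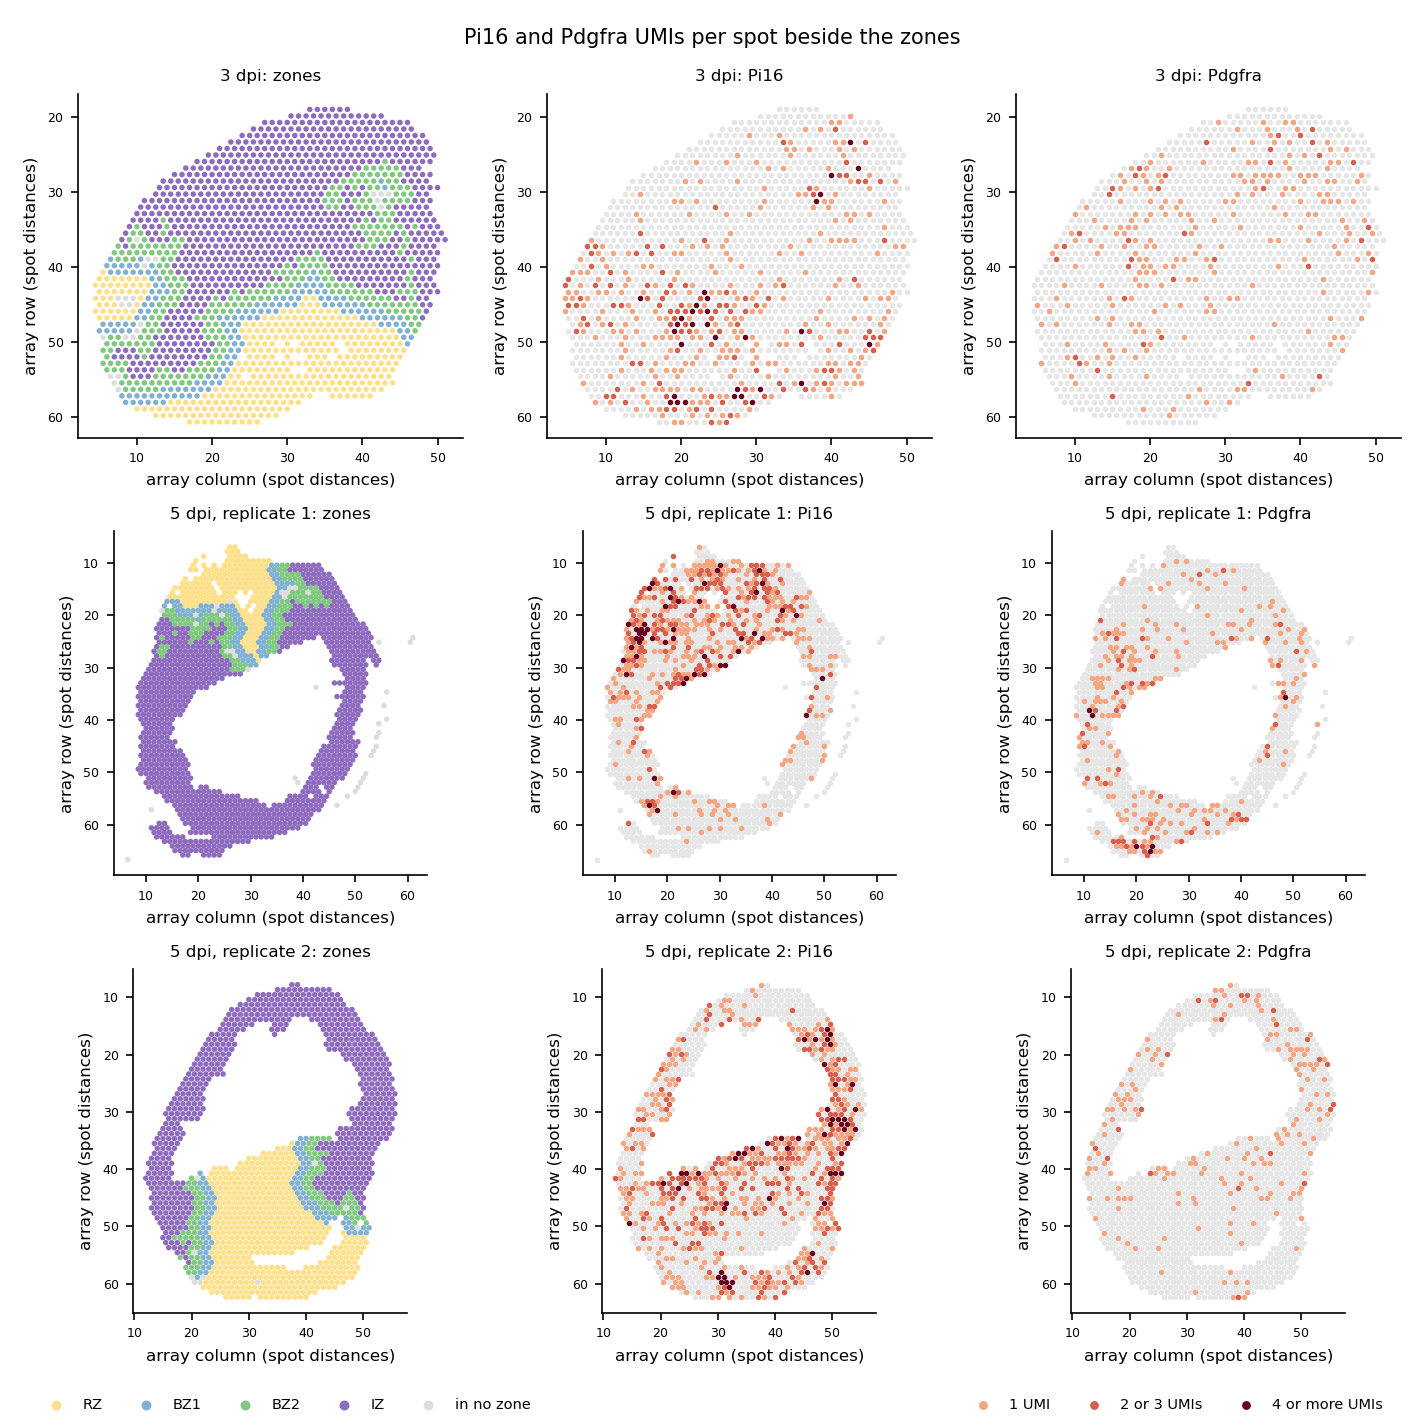
Maps of the 3 infarcted sections, with each kept spot at its place on the array and axes in spot distances: the zones (left), Pi16 UMIs per spot (middle) and Pdgfra UMIs per spot (right). Grey spots in the gene maps held no UMI of the gene. At 3 dpi 147 of 380 RZ spots and 130 of 882 IZ spots held at least 1 Pi16 UMI, in replicate 1 at 5 dpi 103 of 200 and 284 of 1061 did, and in replicate 2 223 of 533 and 302 of 684. In replicate 2 this share of spots was slightly higher in the IZ. The maps and spot counts are not scaled to depth, and IZ spots held more UMIs each than RZ spots. At 3 dpi the 882 IZ spots held 4990848 non-mitochondrial UMIs and the 380 RZ spots 1328489.

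Spots were also placed in 5 bins by their share of cardiomyocyte UMIs, cut at pooled quintiles of the infarcted sections (0.219, 1.79, 5.22 and 8.21%). The lowest bin held 35 spots at 3 dpi, and 590 and 315 in replicates 1 and 2 at 5 dpi. Of the control, 1122 of 1146 kept spots fell in the highest bin. Pdgfra was at least 2-fold higher in the lowest bin than in the highest in 3 of 3 sections, the only gene of the 7 to be so, and none was 2-fold lower in all 3. Among the 9304 genes counted in this way 20.8% were higher and 10.8% lower. Pdgfra went from 22.1 CPM in the highest to 63.7 in the lowest bin at 3 dpi, from 14.4 to 49.4 in replicate 1 at 5 dpi and from 12.7 to 37.4 in replicate 2.

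Pi16 followed the share at 3 dpi through all 5 bins, with 12.7, 23.7, 49.5, 122 and 181 CPM from the lowest to the highest. In replicate 1 at 5 dpi it was at 23.4, 85.5, 209, 228 and 200 CPM, level from the middle bin upward. In replicate 2 it was at 81.0, 136, 169, 190 and 122 CPM, and the lowest over the highest bin was 0.664, short of 2-fold. The lowest bin thus held less Pi16 than the middle bin in every section, and replicate 2 at 5 dpi had the most Pi16 of the 3 hearts in the lowest bin and the least in the highest.

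Dpt rose toward the lowest bin in the 5 dpi hearts, from 117 to 189 CPM in replicate 1 and from 55.4 to 236 in replicate 2, and went the other way at 3 dpi, from 132 to 76.5 CPM. Smoc2 went from 99 in the highest to 35.0 CPM in the lowest bin at 3 dpi, and was within 1.43-fold between the same bins in both hearts at 5 dpi. Ly6a had its lowest level in an inner bin in both 5 dpi hearts, 277 CPM in the second lowest bin of replicate 1 and 318 in the middle bin of replicate 2, while at 3 dpi it was at 621 CPM in the lowest and 441 in the highest bin, which was the bin with the least. Dpep1 went from 53.5 in the highest to 25.5 CPM in the lowest bin at 3 dpi and from 55.9 to 29.7 in replicate 1 at 5 dpi, and from 24.7 to 30.7 in replicate 2. Tcf21 was at 21.8 CPM in the lowest and 7.49 in the highest bin of replicate 2 at 5 dpi, while in the other hearts 1 of these bins held only 3 UMIs of it and the intervals of the bins overlapped.

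The highest bin holds nearly all of the control, so that spots above the same share of cardiomyocyte UMIs can be set side by side, although the other cells in them need not match. There Pi16 was 1.49, 1.64 and 1.0 times the control at 3 dpi and in replicates 1 and 2 at 5 dpi. Dpt was 1.71, 1.51 and 0.719 times, and Smoc2 0.975, 0.786 and 0.723 times. None of the 7 genes was 2-fold higher in this bin than in the control in any heart. The lowest ratio, that of Tcf21 in replicate 1 at 5 dpi, rests on 3 UMIs (4.79 CPM, interval 0.988 to 14), and its interval holds the 9.78 CPM of the control.

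**Figure D5:**
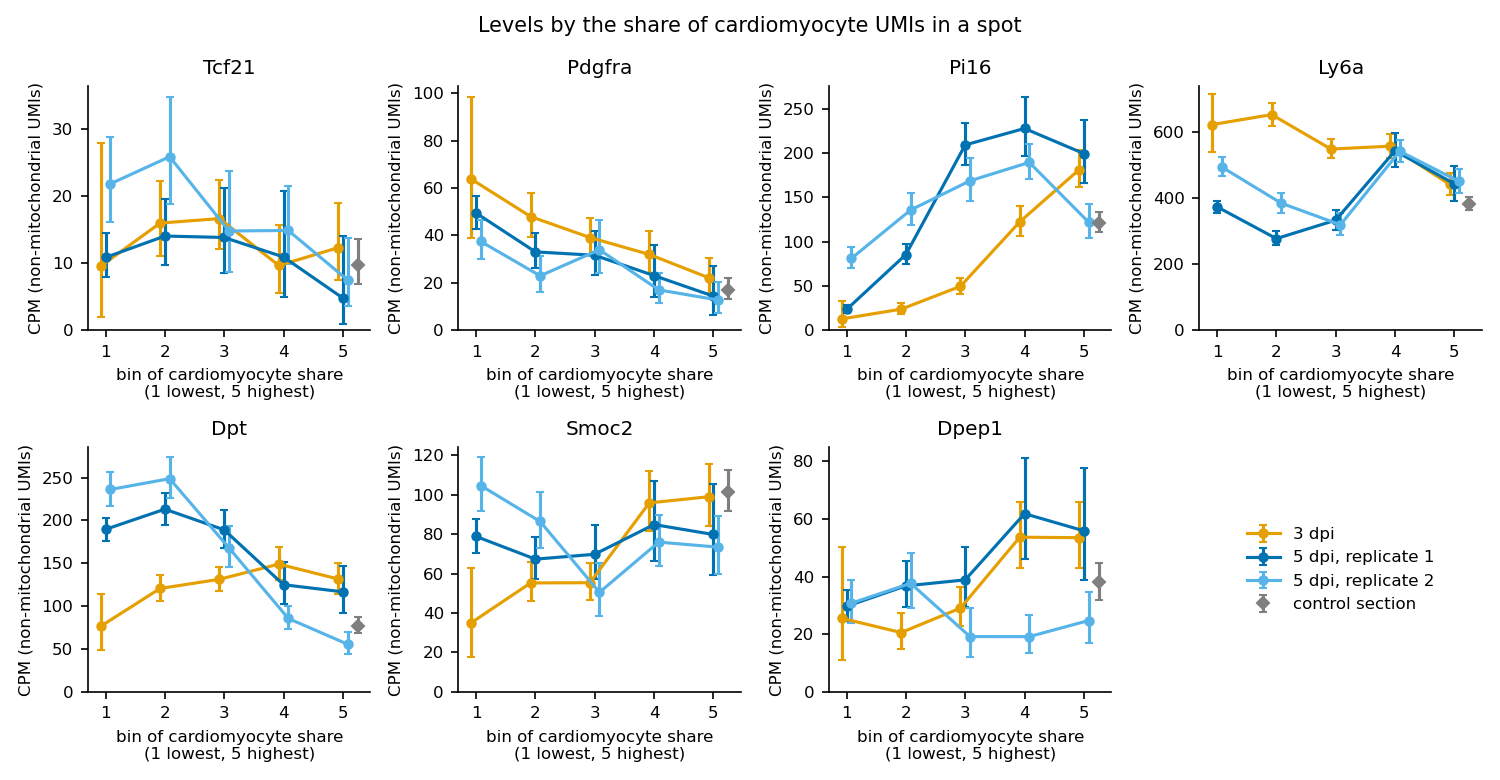
Levels of the 7 genes by the share of cardiomyocyte UMIs in a spot, in CPM of non-mitochondrial UMIs, in 5 bins from the lowest share (1) to the highest (5). Points are sums over the spots of a bin in 1 section with 95% Poisson intervals, and the diamond is the control, nearly all of whose spots fall in bin 5. Pdgfra is lower in bin 5 than in bin 1 in each heart (22.1, 14.4 and 12.7 against 63.7, 49.4 and 37.4 CPM), Pi16 rises from 12.7, 23.4 and 81.0 CPM in bin 1 to 181, 200 and 122 CPM in bin 5, and Dpt runs opposite ways at 3 and 5 dpi.

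The outer surface of the heart, with its sheet of mesothelial cells, was compared with the inner wall. Surface spots were the outermost ring of the section and inner spots lay 3 or more steps from it. The outline took in spots not marked as tissue, which were then left out of the sums. Outside the IZ, none of the 7 genes was called over the 4 sections, and 0.1% of 8002 genes were (0.0875% higher and 0.0125% lower at the surface). Ly6a came nearest: it was lower at the surface in 4 of 4 sections (276 against 414 CPM in the control, 390 against 521 at 3 dpi, 255 against 483 and 448 against 503 at 5 dpi), with a log2 fold change of -0.58 ± 0.16 (SE, adjusted p = 0.11). It was called in 4 of 11 alternatives (both total UMI scalings, a surface of 2 rings and without replicate 2 at 5 dpi), and the adjusted p ran from 0.0081 to 1.0 over the 11, with log2 fold changes of -0.67 to -0.38. Its surface sums at 5 dpi held only 23 UMIs in 28 spots of replicate 1 and 20 in 15 spots of replicate 2. In replicate 2 the surface interval, 274 to 692 CPM, held the inner level. Within the IZ, none was called either, and 1.05% of 10983 genes were (0.574% higher and 0.473% lower). Pi16 was lower at the surface in 3 of 3 sections there (13.1 against 38.4 CPM at 3 dpi, 43.0 against 73.4 and 87.1 against 113 at 5 dpi; log2 fold change -0.89 ± 0.27, SE, adjusted p = 0.070), on surface sums of 2, 43 and 5 UMIs. At an unadjusted p under 0.05, 383 genes stood out outside the IZ and 834 within it, and DESeq2 called none of the 7 in either place. Of the mesothelial list, 4 of 4 genes tested were higher at the surface within the IZ, with the list at 52.4, 349 and 435 CPM at the surface and 4.49, 27.2 and 12.9 CPM inside.

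Other genes of resting fibroblasts were read from a pair of lists, and their counts stand beside the 26.8% of all genes that rose and the 27.0% that fell in this comparison. Of 10 genes of vessel-sheath (adventitial) fibroblasts, 9 were tested in IZ against RZ, 3 rose and 4 fell, with a median of -0.56. The summed level of this list nevertheless stood higher in the IZ of each infarcted section. In the heart of 3 dpi the IZ held 1072 CPM of it, beside 594 in the RZ. Replicate 1 of 5 dpi had 1470 CPM in the IZ (RZ 978), and replicate 2 also 1470 (RZ 864). Scara5, a ferritin receptor (-4.42), and Clec3b, which encodes tetranectin (-2.90), fell the most, and Cd248, the surface protein endosialin (1.42), and Anxa3 (1.03) rose the most. Of 10 genes of interstitial fibroblasts, 9 were tested, 2 rose and 5 fell, with a median of -0.42. Their summed level was lower in the IZ of the 3 dpi heart (1441 CPM, RZ 2284) and of replicate 1 of 5 dpi (1973, RZ 2291). It was higher in the IZ of replicate 2 (2278 CPM, RZ 1645). Hsd11b1, an enzyme that activates glucocorticoids (-2.15), and the transporter Abca8a (-1.72) fell the most, while the chemokine Cxcl14 (0.75) and the collagen gene Col15a1 (0.69) rose. The values given for single genes are log2 fold changes with TMM scaling, past an adjusted p of 0.05, and each list held both directions. All 13 genes of activated fibroblasts rose, with a median of 2.14, from Col8a1 (1.10) and the smooth muscle actin gene Acta2 (1.39) to fibronectin, Fn1 (3.19), and Cthrc1 (3.68).

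The genes around the 7 were followed by family. Of the PDGF system 7 genes were tested, 4 rose and none fell in the IZ, where 26.8% of all genes rose and 27.0% fell. The ligand gene Pdgfc rose the most (log2 fold change 2.99 ± 0.43, SE, adjusted p = 5.6e-06, on 3, 2 and 3 UMIs in the RZ), and it was at 1.34 CPM in the control section, 9.43 at 3 dpi, and 19.2 and 13 at 5 dpi. The receptor-like gene Pdgfrl (1.19), Pdgfra (0.64) and Pdgfrb, the receptor typical of mural cells (0.58), rose as well. The ligand genes Pdgfa (0.11), Pdgfb (-0.13) and Pdgfd (-0.41) did not pass the threshold. Of 8 genes of the SPARC family, 4 were tested: Sparc, a matrix protein that binds collagen (1.48), and Fstl1 (1.42) rose, and Smoc2 (-0.71) and Sparcl1 (-0.69) fell. Of 9 genes of the Ly6 cluster, 4 were tested: Ly6c2 (2.95), which inflammatory monocytes express, and Ly6e (0.32) rose, and Ly6c1 (-1.09), which endothelial cells express, and Ly6a (-0.49) fell. The genes of this cluster are close copies, and how reads shared between them were counted is not given in the sources used here, so their split is uncertain.

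Ly6a is also expressed by endothelial cells. Of 8 endothelial genes 5 fell in the IZ and none rose, from Fabp4 (-1.65) and Kdr (-1.48) to Pecam1 (-0.65) and Cdh5 (-0.55). The list summed to 1815 and 1707 CPM in RZ and IZ at 3 dpi, 2485 and 1078 in replicate 1 at 5 dpi, and 3544 and 1397 in replicate 2, so that it moved little at 3 dpi, where Ly6a was higher in the IZ in CPM, and dropped in the 5 dpi hearts, where Ly6a was lower. Of 6 mural genes 4 fell and none rose (Abcc9, -2.03, Kcnj8, -1.39, Vtn, -1.24, and Rgs5, -1.02), and all 8 macrophage genes rose, from Mrc1 (0.49) and Csf1r (1.37) to Cd68 (2.68) and Ctss (3.13), with the list at 1352 to 1816 CPM in the RZ and 7192 to 11304 in the IZ. None of the genes in these lists was at 0 in the summed zones. The part of these cell types in the levels of the 7 genes was not tested.

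The genes with the most similar levels were sought for each of the 7 over 13 units, the 4 zones of the 3 infarcted hearts and the control section, by Pearson's r of log2(CPM + 1) among the 9444 genes tested. Units of 1 section share a library, so r is given as a description. Pi16 was nearest to Cpe (r = 0.91), Lbh (0.89) and Pebp1 (0.89), and Pdgfra to Dync1i2 (0.94), Usp8 (0.93) and Pik3ap1 (0.93). Dpt was nearest to Clstn1 (0.92), Gfpt2 (0.91) and Emc10 (0.91), and Dpep1 to Zfyve9 (0.94), Nfia (0.88) and Ppm1a (0.88). The closest genes to Tcf21 were AU022252, Spag9 and Usp48 (0.87 each), to Ly6a Stip1 (0.86), Mrps18b (0.85) and Lsm4 (0.76), and to Smoc2 Htra3 (0.79), Rbl2 (0.78) and Snrnp200 (0.74). No gene of the 7 was among the 3 nearest of another. Between the 7 themselves r ran from -0.71 for Pi16 with Pdgfra to 0.61 for Pdgfra with Dpt, with 0.54 for Smoc2 with Dpep1.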

How the data were processed

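The deposited matrices hold raw counts of UMIs for each gene and spot, which the authors left without normalization. Per the labels and the study's methods they were made with Space Ranger (version 1.3.1 per the file headers) from a mouse reference with a GFP sequence added, and spots under tissue were picked by hand. The labels name mm10 and the methods an Ensembl-based reference, so the files' build is not settled and no gene positions are given other than those of the RefSeq promoters. Of the marked spots, those under 500 UMIs, under 250 genes or above 50% mitochondrial UMIs were dropped, leaving 3742105 to 9540940 non-mitochondrial UMIs per section. The floor of a level, 3 UMIs, was 0.314 to 0.802 CPM.

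The quasi-likelihood test of edgeR 4.0.16 (in R 4.3.3, on limma 3.58.1) was run on zone sums after filterByExpr with each zone as a group, using TMM factors and the section as a block. The Benjamini-Hochberg adjustment ran over all genes tested, and the threshold was 0.05. Alternatives were DESeq2 1.42.0, other scalings, no filters, other zone limits and each section left out. Tested on simulated data, the edgeR test made more false calls in core against rim than the threshold allows. In the other zone comparisons it made slightly more. It missed many 2-fold changes in BZ2 against RZ, in IZ against BZ2 and at the surface, so that a gene not called there may still differ. Few genes were changed in the simulation, equally in both directions. False calls under changes as wide as those between IZ and RZ were thus not tested. Only 3 infarcted hearts enter, and p-values measure the spread between these sections. Sums, levels and figures came from NumPy 2.4.6, pandas 2.3.3, SciPy 1.17.1 and Matplotlib 3.10.9 under Python 3.11.15. The sections share 184 spot barcodes, which are array positions and not cells.

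The 7 genes and all lists were chosen with earlier results of these data known. The 7 are reported in full. From the other lists described the 2 highest and the 2 lowest log2 fold changes in IZ against RZ among genes past the threshold are named, and all genes of the PDGF list; the activated genes called between rim and core were named after their values were seen.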

Additional observations from a re-analysis of the deposited data

Results flagged for a closer look

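In CPM, Ly6a and Dpt went opposite ways at 3 and 5 dpi between IZ and RZ, for Ly6a by a ratio at 3 dpi little above the 0.42 that TMM scaling takes off. The log2 CPM ratio of IZ over RZ for Ly6a was 0.52 at 3 dpi, and -0.46 and -0.27 in replicates 1 and 2 at 5 dpi. For Dpt it was -0.26 at 3 dpi, and 0.76 and 1.80 at 5 dpi. The difference between the times was not tested.

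In the 623 spots of replicate 2 at 5 dpi that were not marked as tissue, Pdgfra was at 41.3 CPM (92 UMIs, 95% Poisson interval 33.3 to 50.6) and Dpt at 129 CPM (287 UMIs, interval 114 to 145), both above the control section (16.8 and 77.8 CPM). Pi16 (51.6 CPM), Ly6a (276), Smoc2 (64.6) and Dpep1 (16.2) were below it there, and Tcf21 was at 14.4 CPM.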

How the results depend on the processing

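Of 449 log2 fold changes of the 7 genes under alternatives, 355 kept their direction and side of the threshold, 24 lost a call, 22 gained one and 48 changed sign, none of the latter past the threshold. The call count for IZ against RZ (5) fell to 2 when low spots were set by percentile 1 of the control section and was 6 with no filter on low counts (Dpt added), and without each section in turn it was 2 to 5. For BZ2 against RZ (0) it was 0 to 1 without each section. For IZ against BZ2 (1) it was 2 with total UMIs, 2 with total UMIs without cardiomyocyte genes and 3 with that percentile limit, and 1 to 4 without each section. For IZ core against rim (2) it was 1 with DESeq2, with both total UMI scalings, with no filter on low counts, with no spot filter and with the percentile limit, 0 with no section block, 3 with the stricter factor for low spots (Dpep1 added, -0.77), and 1 to 2 without each section. For the surface outside the IZ (0) it was 1 with both total UMI scalings and with 2 rings, and within the IZ (0) 1 with no spot filter, and without each section 0 to 1 in both. Genes 2-fold from the control (0) were 2 per all UMIs and 0 to 1 without each 5 dpi section, and genes ordered by cardiomyocyte share (1) were 1 to 2 without each section. Dpt changed sign without replicate 2 at 5 dpi in IZ against RZ (-0.15 to 0.94 without each section) and IZ against BZ2 (-0.049 to 0.62), and in core against rim with the percentile limit (0.17), and Dpep1 changed sign in IZ against BZ2 without 3 dpi (-0.86 to 0.50). The causes were not tested.

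Over all genes, calls in BZ2 against RZ (851) were 56 with no section block, 41 with the percentile limit, 1469 with the stricter factor for low spots, and 158 and 398 without replicates 1 and 2 at 5 dpi. Calls in IZ against BZ2 (3249) were 2130 without replicate 1 at 5 dpi, and in core against rim (1896) 1047 with DESeq2 and 1011 with no section block. Calls at the surface outside the IZ (8) were 0 to 35 and within it (115) 5 to 247 over the alternatives. Genes 2-fold higher and lower than the control (2292 and 483) were 3686 and 134 per all UMIs and 1466 and 1022 with TMM factors, and those ordered by share (1933 and 1001) were 3822 and 644 per all UMIs. The zone tests compare within sections through the section block. Between the time groups, no test was made. No paired analysis between these groups was possible, because each section came from a different heart. The control and 3 dpi groups hold 1 section each.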
